A study of Mus musculus with 2 samples.

Results

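The long noncoding RNA genes described here are Malat1, Neat1, Tug1, Miat, Pvt1, Dleu2 and Hotair. They were chosen by gene symbol with their activities already known, and every RefSeq entry under these symbols was taken, which gave 11 of the 24165 entries in the deposited table of gene activity. The table was made from GRO-seq of untreated C2C12 myoblasts, an established mouse line of muscle precursor cells, grown to a confluency of 80% with no genetic change or agent named in the labels. In GRO-seq, polymerases halted in isolated nuclei are released to run on with bromouridine, and the labelled nascent RNA is sequenced. A read is thus meant to mark an engaged RNA polymerase and not the amount of stable RNA. Whether stable RNA was carried over into the libraries was not tested. The authors pooled 2 replicate libraries and gave each entry 1 value in RPKmM, which is the depth-scaled read density RPKM taken per kilobase of mappable bases, on the sense strand of the gene body from 1 kb after the transcription start site (TSS) to the transcript end. Entries whose density was not above that of gene deserts in the authors' test carry the word Inactive. No value of a single library was used here, so nothing below has a replicate error or a test, and the table gives no read counts behind its values.

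Long noncoding RNAs are transcripts without a long open reading frame, many of which are made by RNA polymerase II and processed like messenger RNAs. Malat1 is known as an RNA of nuclear speckles, where splicing factors gather, and the long form of Neat1 is the scaffold on which paraspeckle proteins assemble. Miat, also called Gomafu, forms nuclear foci of its own and is known from neurons. Hotair is transcribed from within the HoxC cluster and Tug1 next to Morc2a. Pvt1 lies beyond Myc, a locus known from translocations and amplification in tumours, and Dleu2 is the host transcript of the microRNAs miR-15a and miR-16.

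All 7 genes were marked active, as were all 11 of their entries, where 70.2% of all entries and 43.7% of the 2471 noncoding (NR_) entries were. Activity was 910.36 RPKmM for Malat1 (NR_002847). For Neat1 it was 534.56 (NR_003513) and 132.94 (NR_131212). By comparison, active entries had a median of 0.87 RPKmM, quartiles of 0.22 and 1.99 and a highest value of 5957.39, for the ribosomal RNA precursor gene Rn45s. Tug1 followed with 8.3 (NR_002321) and 7.4 (NR_002322). Pvt1 had 3.85 (NR_132747), 3.81 (NR_132746) and 3.8 (NR_003368). Dleu2 (NR_028264) had 2.43, which is 2.79 times the median of active entries. Hotair (NR_047528), at 0.97, lay close to that median. Miat (NR_003718) was the lowest, at 0.02 RPKmM.

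**Figure D1:**
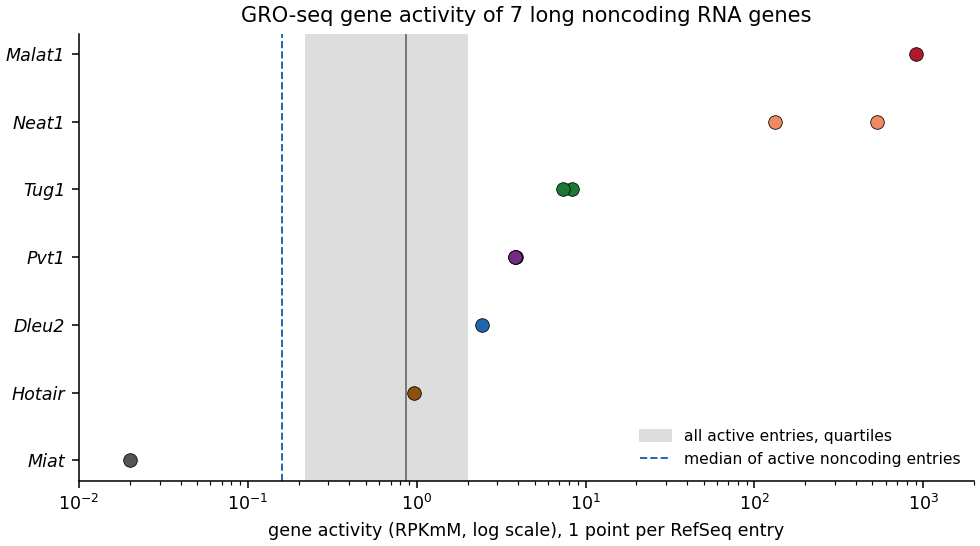
Gene activity in RPKmM on a log axis, with a point for each RefSeq entry of the 7 genes. The grey band spans the quartiles of all active entries (0.22 to 1.99), the grey line their median of 0.87 and the dashed line the median of active noncoding entries, 0.16; Malat1 and Neat1 lie far to the right of the band, Hotair within it and Miat to its left.

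Thus the genes covered nearly the whole range of the table, with Malat1 listed 45518 times as high as Miat. This ratio, like that of Hotair to Miat below, rests on the rounded value of Miat and is approximate. Among the 16957 active entries Malat1 was ranked 2, the Neat1 entries 4 and 17, the Tug1 entries 632 and 740, and the Pvt1 entries from 1861 to 1892. Dleu2 was ranked 3354 and Hotair 7928. Malat1 was above every one of the 15878 active coding entries, the highest of which was at 888.63. Going down the order by the most active entry of each gene, Malat1 was 1.70 times Neat1, Neat1 64.4 times Tug1, Tug1 2.16 times Pvt1, Pvt1 1.58 times Dleu2, Dleu2 2.51 times Hotair, and Hotair 48.5 times Miat. By the least active entry of each gene, Malat1 was 6.85 times Neat1 and Neat1 18.0 times Tug1. The ranges spanned by the entries of different genes did not overlap anywhere in this order. However, 4 of the 7 genes have a single entry and so no range, and entries of the same gene share reads. Without values of the separate libraries it is not known which of these steps exceeds the variation between replicates.

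Noncoding entries were in general less active than coding ones, with a median of 0.16 against 0.92 RPKmM among those marked active. An activity of at least 1 was found for 46.0% of all active entries, for 21.8% of the 1079 active noncoding entries and for 9 of the 11 entries described here. Several of these 9 are entries of the same gene. Of the 34 noncoding entries at 10 or above, 3 belong to Malat1 and Neat1. Hotair illustrates the difference between these backgrounds, as its 0.97 was above 53.0% of all active entries but above 77.8% of the noncoding ones. Only Miat was below the noncoding median, with 15.4% of active noncoding entries under it, 6.99% of all active entries, and 34.7% of all entries if inactive ones are counted as lowest. Miat shares with 588 other active entries the listed value of 0.02. Activities were deposited with 2 decimals, so this value may stand for anything from 0.015 to 0.025, a margin of 25% either way. For Hotair the margin is 0.515%, and it is smaller for the other genes.

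**Figure D2:**
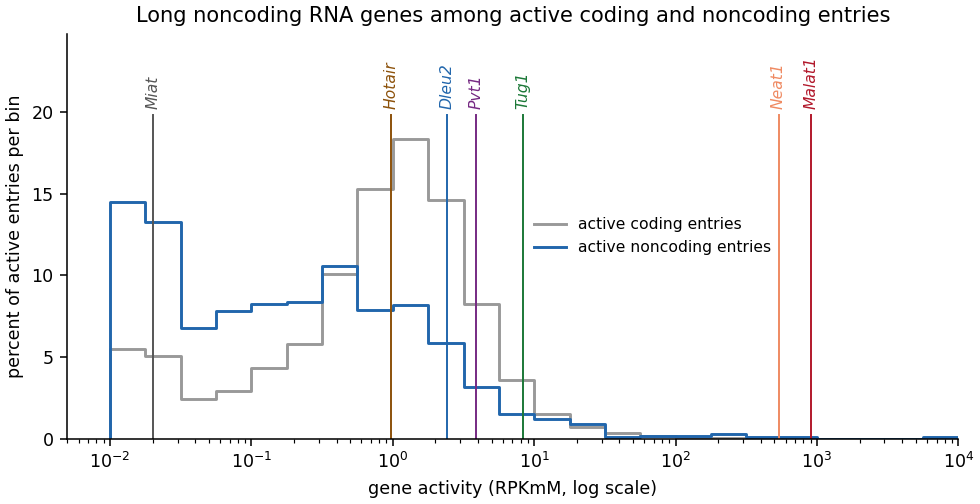
Share of active coding (grey) and noncoding (blue) entries in bins of gene activity (RPKmM, log axis; entries listed at 0 are left out), with a vertical line at the most active entry of each gene. The coding entries are centred near their median of 0.92 and the noncoding ones reach lower, with Miat among the lowest noncoding entries and Malat1 and Neat1 in the sparse upper tail.

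Malat1 and Neat1 are neighbours. In mm9, by the GENCODE vM1 annotation, Malat1 spans 5795690 to 5802671 of chromosome 19 (minus strand; gene ENSMUSG00000092341.1), with 5 annotated transcripts. Neat1 spans 5824708 to 5845478 on the same strand (ENSMUSG00000092274.1), so that 22.0 kb separate the start of Malat1 from the end of Neat1. Within 250 kb of either gene, 26 other genes with entries in the table could be placed on mm9. Of these, 24 were active, with activities from 0.01 to 6.79 and a median of 1.2 RPKmM. Malat1 was 134 times as active as the highest of these, Ehbp1l1. Even the lower Neat1 entry was 19.6 times as active as that gene. Frmd8, which ends 4.22 kb from the Neat1 start, had 2.1 RPKmM. The high densities were therefore listed for these noncoding genes and for no other placed gene of the window.

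The entries of Neat1 differed from each other more than those of most genes. Their ratio was 4.02, while 2273 genes with at least 2 active entries above 0 had a median ratio of 1.1 between the highest and the lowest, and 54 of them (2.38%), Neat1 included, had a ratio as large as that of Neat1. In the annotation Neat1 has a long transcript of 20771 bp and a short one of 3170 bp, from 5842307 to 5845476, which share their start to within a few bases. The table does not say which entry is which. Its rows follow the order of genomic position, with 99.3% of consecutive placed genes in ascending order, and NR_131212 comes ahead of NR_003513. On the minus strand the longer transcript has the lower start coordinate, so this order makes NR_131212 the long entry and NR_003513 the short one. Read in this way, and taking all bases as mappable, the 534.56 RPKmM of the short entry covers 2.17 kb of gene body, and the 17.6 kb beyond it would have a density of 83.4 RPKmM to give 132.94 over the whole. The density over the short span would then be 6.41 times that over the rest, and the short span would hold 44.1% of the reads of the long gene body. If the entries were exchanged, the part beyond the short span would instead be at 584 RPKmM. Under either reading, the long-only part of Neat1 was more active than any gene of the window other than Malat1.

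Because activity is a density, it does not say how many polymerases a locus holds. Multiplied by the annotated gene body, and if all bases are mappable, it gives the depth-scaled number of reads (RPM). By this measure Malat1 would have an RPM of 5446 over 5.98 kb, and Neat1 an RPM of 2628 over the 19.8 kb of its long form if NR_131212 is the long entry. With the Neat1 entries exchanged it would be 10569, above Malat1, so the order of these genes in reads rests on that assignment. Pvt1 was below both under either assignment, with 1306 over the whole annotated locus of 339 kb, or 816 if its gene body ends with a shorter annotated transcript, after 212 kb, which is nearer to the extent of Pvt1 in RefSeq. Dleu2 would have 150 over 61.8 kb and Tug1 66.6 over 8.02 kb. So Tug1 was above Pvt1 and Dleu2 per kilobase but below them in reads. Hotair would have 3.26 and Miat 0.294. RefSeq and GENCODE ends may differ, most of all for Pvt1 and Dleu2, and these products are only as good as the annotated lengths.

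The promoters of Malat1, Tug1, Dleu2 and Miat are shown so that their composition can be set beside their activities, and they are those of the 7 genes that matched the promoter table used here, which Neat1, Pvt1 and Hotair did not. The sequences are those of RefSeq on GRCm38.p6, from 250 bases before to 50 after the annotated start, written 5′ to 3′ on the strand of the gene. Capitals mark matches on either strand to CACGTG (the E-box bound by Myc), CAGCTG (an E-box bound by MyoD), GGGCGG (the GC box), CCAAT or TATAAA. They are given from the most to the least active gene, at chr19:5802623-5802922, chr11:3648765-3649064, chr14:61682324-61682623 and chr5:112228899-112229198, all on the minus strand.
Malat1: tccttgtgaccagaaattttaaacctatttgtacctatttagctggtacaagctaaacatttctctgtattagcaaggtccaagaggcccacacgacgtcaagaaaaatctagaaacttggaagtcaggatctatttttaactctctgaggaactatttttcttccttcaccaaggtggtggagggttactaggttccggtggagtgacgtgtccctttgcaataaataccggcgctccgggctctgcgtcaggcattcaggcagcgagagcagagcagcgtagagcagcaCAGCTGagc
Tug1: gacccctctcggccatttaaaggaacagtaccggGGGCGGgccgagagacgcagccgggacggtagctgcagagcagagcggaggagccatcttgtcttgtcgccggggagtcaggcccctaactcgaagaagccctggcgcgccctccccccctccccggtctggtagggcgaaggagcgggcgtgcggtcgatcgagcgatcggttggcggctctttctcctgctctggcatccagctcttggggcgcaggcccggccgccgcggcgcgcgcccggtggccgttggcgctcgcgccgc
Dleu2: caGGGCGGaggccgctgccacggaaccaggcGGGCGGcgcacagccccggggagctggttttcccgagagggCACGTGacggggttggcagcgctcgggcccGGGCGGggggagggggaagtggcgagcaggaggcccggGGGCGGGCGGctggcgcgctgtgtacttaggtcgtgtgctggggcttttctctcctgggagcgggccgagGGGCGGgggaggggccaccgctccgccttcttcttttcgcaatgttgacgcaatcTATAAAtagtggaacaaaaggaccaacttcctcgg
Miat: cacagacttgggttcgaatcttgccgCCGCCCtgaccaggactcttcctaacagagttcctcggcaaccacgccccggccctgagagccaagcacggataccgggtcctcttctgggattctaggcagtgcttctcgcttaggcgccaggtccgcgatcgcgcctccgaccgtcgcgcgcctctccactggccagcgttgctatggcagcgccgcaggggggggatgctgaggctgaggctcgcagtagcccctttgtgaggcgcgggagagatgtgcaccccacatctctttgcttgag

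The order of activity was not the order of promoter composition. The Malat1 promoter was the poorest in G and C, with 47% and 10 CpG dinucleotides, and had a ratio of observed to expected CpG of 0.604. Over the 32841 promoters of the table without unknown bases, the medians were 52.7% and 0.384, so Malat1 was below the median in G and C and above it in CpG ratio. Tug1 had 71.3% G and C and 37 CpG, the most of the 4 in this window, with a ratio of 0.971. Dleu2 had 69% and a ratio of 0.856. Miat, the least active gene, also had a promoter rich in CpG, with 64.3% G and C, 25 CpG and a ratio of 0.807, higher than in 79.7% of all promoters.

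Dleu2 had the most matches. The GC box was found 6 times in its window, with 2 of these matches overlapping by 2 bases at positions −110 and −106 from the start, and there was 1 CACGTG at −178 and 1 TATAAA at 16. Tug1 and Miat had 1 GC box each, at −216 and −224. In Malat1 the only match was a CAGCTG, at 42. In all promoters of the table, GGGCGG was present in 35.7%, CACGTG in 7.15%, CAGCTG in 16.3%, TATAAA in 13.6% and CCAAT, which none of the 4 windows holds, in 37.4%. These are matches of letters only, and no binding was measured in these data.

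**Figure D3:**
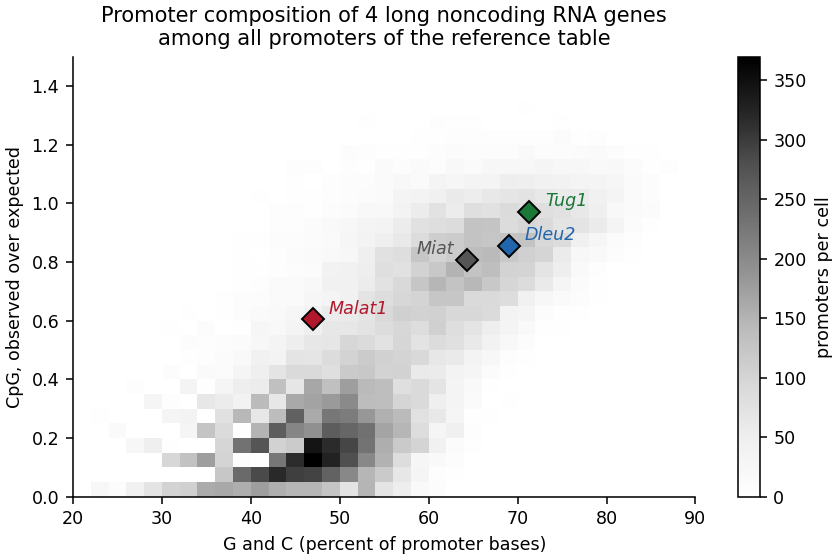
G and C content (percent of 300 bases) against the ratio of observed to expected CpG for 32841 promoters (grey cells, darker where there are more promoters) and for Malat1, Tug1, Dleu2 and Miat (diamonds). Tug1, Dleu2 and Miat lie in the upper right group of CpG-rich promoters, and Malat1 lies to the left of it at 47% and 0.604.

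In mm9, Dleu2 spans 62238318 to 62301162 of chromosome 14 (minus strand; ENSMUSG00000087313.2). The microRNAs in it are shown for the seed they share with those of the other host gene, Smc4, which encodes a condensin subunit. The mature sequences are from RefSeq, 5′ to 3′, with the seed (bases 2 to 8) in capitals.
mmu-miR-15a-5p: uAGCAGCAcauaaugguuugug
mmu-miR-16-5p: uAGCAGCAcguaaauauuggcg
mmu-miR-15b-5p: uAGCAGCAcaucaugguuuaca

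Their sequences were found by exact match in mm9. In Dleu2, miR-15a-5p lies from 62250912 to 62250933 and miR-16-5p from 62250773 to 62250794, in an intron of the transcript that spans them, 50.2 and 50.4 kb after the annotated TSS. In Smc4, on the plus strand of chromosome 3, miR-15b-5p lies from 68813697 to 68813718 and a second copy of miR-16-5p from 68813840 to 68813861, also intronic and about 5 kb from the TSS. The shared seed occurs in 10 of the 1679 mature microRNAs of the table. Both hosts were active, at 2.43 RPKmM for Dleu2 and 11.19 for Smc4, above 80.1% and 97.5% of active genes. The miR-16 sequence is the same from both loci, so these data give the activity of 2 sources of it, and the mature microRNA itself was not measured. All 9 genes listed here as known targets of miR-15 and miR-16 were active, where 68.7% of gene symbols were, from 0.86 for Ccne1 (cyclin E1) to 8.05 for Ccnd1 (cyclin D1), with a median of 2.06. Vegfa, a growth factor gene of blood vessels, had 6.39 and Ccnd2 (cyclin D2) 2.65.

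Dleu2 stood out from its surroundings at a moderate level. Of the genes within 250 kb, all 4 were active, and Dleu2 was above each of them. Kcnrg, the nearest, had 0.16 RPKmM on the opposite strand, so that Dleu2 was 15.2 times as active, and Trim13, a ubiquitin ligase gene beside it, had 0.21 for each of its entries. In RefSeq the Dleu2 locus reaches across Kcnrg and into Trim13 on the other strand, while in GENCODE vM1 it ends 7.57 kb before Kcnrg. Kpna3, an importin gene, was the highest of the 4 at 1.43. Dleu7, the next gene on the other side and 594 kb away, was marked inactive.

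Pvt1 spans 61869542 to 62209651 of chromosome 15 in mm9 (plus strand; ENSMUSG00000072566.3), starting 47.6 kb after the end of Myc. Myc, the only other gene of the table that was placed within 250 kb, had 13.6 RPKmM, and the highest Pvt1 entry was at 0.283 of this. The 3 Pvt1 entries differed by a ratio of 1.01, and 26.4% of genes with several active entries had a smaller ratio. Gsdmc, the next placed gene of the table downstream, 1398 kb away, was inactive. Thus the active placed genes of this window were Myc and Pvt1, and genes upstream of Myc beyond the window were not examined.

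Hotair matched GENCODE vM1 under its older name Gm16258 (ENSMUSG00000086903.3), which spans 102774493 to 102778851 of chromosome 15 (minus strand) with 2 exons. It was surrounded by active HoxC genes, which encode homeodomain factors of body patterning and are transcribed from the plus strand. All 8 HoxC genes of the table were active, where 68.7% of gene symbols were, with a median of 3.96 RPKmM. Hoxc11, which starts 6.01 kb from the Hotair start, had 4.22, so Hotair was at 0.230 of it. Hoxc13, on the other side, had 0.58, and Hotair was 1.67 times as active. Hoxc12, annotated between Hotair and Hoxc13, has no entry in the table. Hoxc8 was the most active of the cluster at 19.07, followed by Hoxc9 at 6.63 and Hoxc5 at 6.52. Of the 12 active genes within 250 kb, 10 were at or above the level of Hotair. Of the proteins reported to associate with Hotair, the 13 genes listed for Polycomb repressive complex 2 and the Kdm1a complex were also all active against those 68.7% of symbols, with a median of 2.49 RPKmM, from 0.61 for Phf19 to 4.55 for Suz12, a core subunit. The accessory subunit genes Mtf2 and Aebp2 had 4.52 and 3.88.

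In mm9, Tug1 spans 3539797 to 3548815 of chromosome 11 (minus strand; ENSMUSG00000056579.9), with 3 transcripts. Its start lies 0.682 kb from that of Morc2a, a chromatin ATPase gene transcribed in the opposite direction. The most active Morc2a entry had 3.94 RPKmM, and that of Tug1 was 2.11 times as high. Smtn, a smoothelin gene downstream, had 3.11. All 11 genes within 250 kb were active, and none reached the level of Tug1. The Tug1 entries differed by a ratio of 1.12, close to the median ratio of 1.1 over genes with several active entries.

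Miat spans 112642248 to 112657968 of chromosome 5 (minus strand; ENSMUSG00000086878.2) as a single transcript of 7 exons. Its nearest neighbour, Cryba4, a lens crystallin gene 17.5 kb upstream, was listed at the same 0.02 RPKmM, and Crybb1, another crystallin gene, at 0.01. Tpst2, a tyrosylprotein sulphotransferase gene further along, had 5.73. Of 10 genes within 250 kb, 7 were active with a median of 0.33, and 5 of these were at or above Miat. Miat was thus at the level of the adjacent crystallin genes, with more active genes further upstream.

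**Figure D4:**
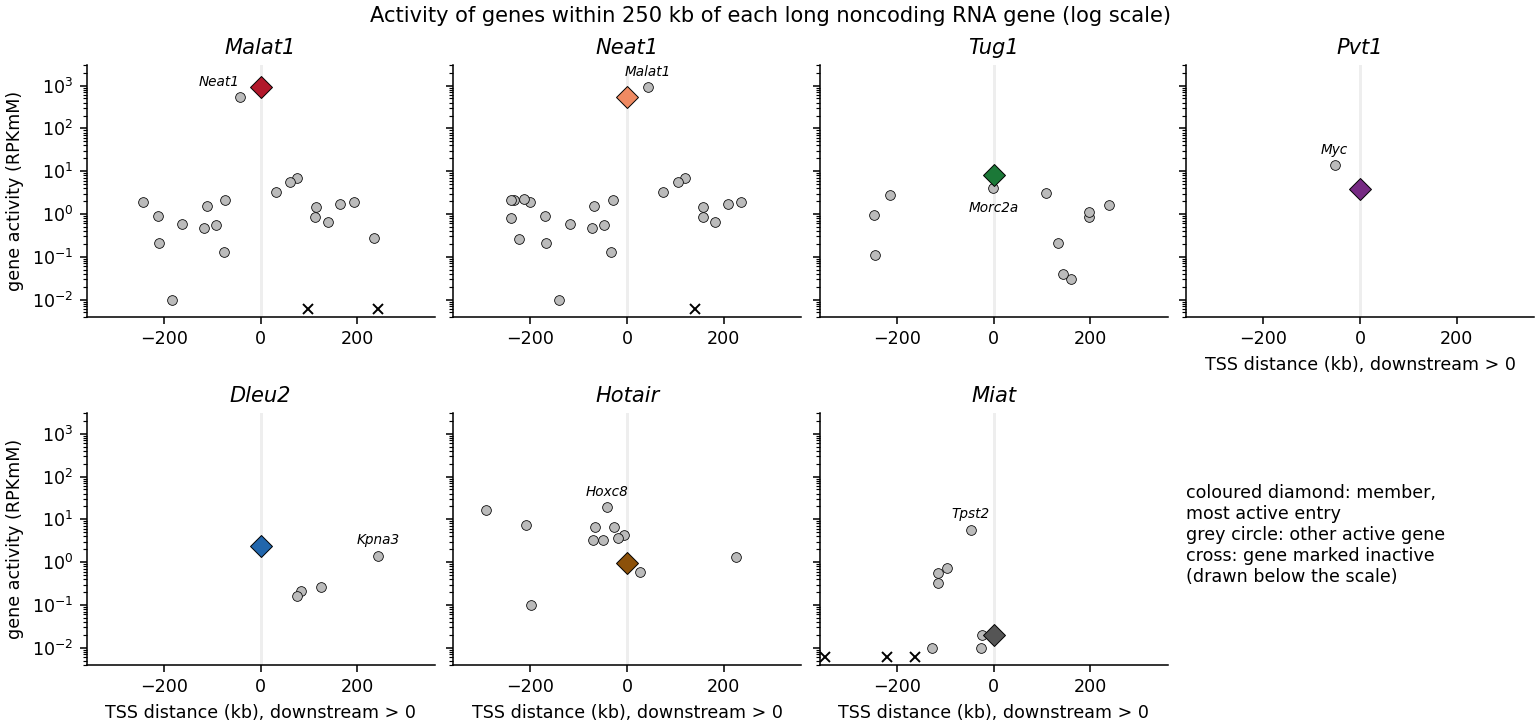
Gene activity (RPKmM, log axis) against the distance of each TSS from that of the named gene (kb, positive in its direction of transcription) for genes that lie at least in part within 250 kb of it. Diamonds are the long noncoding RNA genes, circles other active genes and crosses genes marked inactive; Malat1 and Neat1 lie far above their surroundings, Tug1 and Dleu2 above all genes in their windows, Pvt1 below Myc, and Hotair and Miat below most of their active neighbours.

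Comparing each gene with the nearest genes on both sides gave 9 pairs in which the neighbour was active and was not itself among the 7 genes. The long noncoding RNA gene was higher in 6 of these, as high as listed in 1, which is Miat and Cryba4, and lower in 2, which are Pvt1 with Myc and Hotair with Hoxc11. In a further 3 cases the nearest gene on a side was inactive.

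Other long noncoding RNAs were drawn from a list of 76 well-known names, of which 53 were in the table and 39 were active, where 68.7% of all gene symbols had an active entry. Their median activity when active was 2.02 RPKmM. None reached Malat1 or the higher Neat1 entry. The nearest were Snhg1 at 292.85, Gas5 at 217.29 and Snhg12 at 203.9, which are host genes of small nucleolar RNAs, and Xist, the RNA of X inactivation, at 107.15. The rest of the 10 most active were Snhg6 at 70.53, Snhg4 at 27.87, H19 at 27.08, Snhg17 at 13.24, and the microRNA host genes Mir17hg at 12.27 and Mir22hg at 9.8. Tug1 was exceeded by 10 of the 53, Pvt1 by 14, Dleu2 by 16, Hotair by 27 and Miat by 37. Besides H19, the imprinted RNAs Airn and Kcnq1ot1 had 2.12 and 2.04, while Meg3 and Rian were inactive. Hottip and Halr1, noncoding RNAs of the HoxA cluster, were inactive and Hotairm1 of that cluster had 0.5, where Hotair of the HoxC cluster had 0.97.

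**Figure D5:**
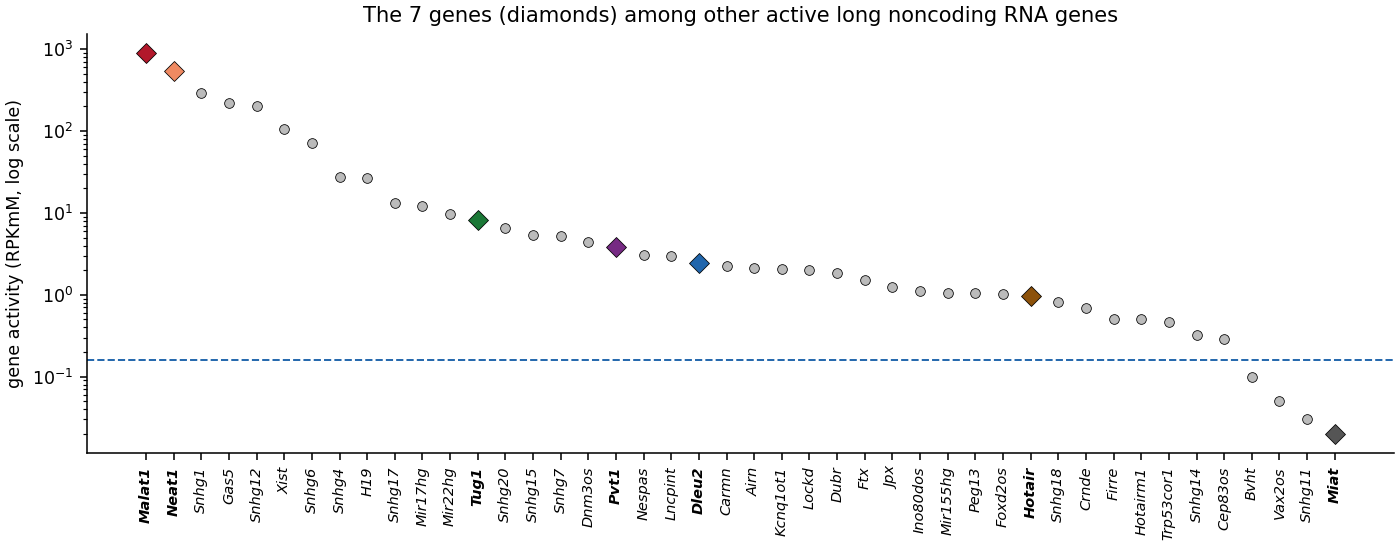
Gene activity (RPKmM, log axis) of the 7 genes (coloured diamonds, bold names) and of other long noncoding RNA genes that were active (grey circles), each by its most active entry and in descending order; Rmst and Sox2ot, listed at 0, are left out. The dashed line is the median of active noncoding entries, 0.16, and Malat1 and Neat1 open the order while Miat closes it.

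The genes listed for proteins of the nuclear bodies that hold Malat1 and Neat1 were all below these RNAs in activity. All 13 paraspeckle protein genes were active, where 68.7% of gene symbols were, with a median of 9.3 RPKmM against 0.87 for all active entries. Tardbp had 87.41, Hnrnpa1 83.3 and Sfpq, a core protein bound by Neat1, 52.43. Its partner Nono had 8.38, and the lowest were Smarca4 at 2.81 and Nudt21 at 0.96. All 15 genes of a list that joins nuclear speckle proteins with the RNA-binding proteins Sf1, Qk and Celf1, known as binders of Miat, were active against the same 68.7%, with a median of 9.98 and from 3.1 for Rnps1 to 125.34 for the splicing factor gene Srsf1, followed by Srsf6 at 80.24 and Pnn at 46.4. Sf1 had 9.98, Celf1 6.55 and Qk 5.65, where Miat had 0.02. RNase P, which cuts the 3′ end of Malat1, and the RNase Z gene Elac2 were represented by 9 genes in the table, all active, with a median of 0.79 that was below the 0.87 of all active entries, from 0.33 for Rpp40 to 4.55 for Rpp21, with Pop1 at 3.64 and Rpp30 at 1.09. All 10 genes listed for microRNAs were active, again against 68.7% of symbols. After Smc4 the highest were Dgcr8 at 4.13 and Ago2 at 2.74, and the nucleases Drosha and Dicer1 had 2.17 and 1.6.

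The labelled cell type was checked by marker genes. All 6 myoblast markers were active, where 68.7% of gene symbols were, with Vim at 146.13, Des at 72.45, Cdh15 at 8.08, Myf5 at 5.03, Myod1 at 2.39 and Pax7 at 0.55 RPKmM. The 7 genes of differentiated muscle were active as well. By their most active entries they ranged from 0.13 for Mb to 6.85 for Acta1, the skeletal muscle actin gene, with a median of 0.83. The least active Mb entry was at 0.06. Acta1 was thus above Myf5 and Myod1, and Myog and Myh1 had 2.39 and 1.56. Of 8 markers of blood, endothelial, epithelial, glial and liver cells, 4 were inactive and the other 4 had at most 0.03.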

How the data were processed

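GRO-seq libraries of C2C12 myoblasts were made in 2 replicates. The authors mapped reads to mm9 with Bowtie2, repeatedly trimmed and remapped those that failed, kept uniquely mapped reads, discarded rRNA and tRNA repeats and pooled the libraries. The labels name CASAVA 1.8 as well. They deposited gene activity in RPKmM, an RPKM over mappable bases, for RefSeq genes, rounded to 2 decimals. Pooling hides the variation between libraries, discarded repeats can leave bases uncounted, and the unit is known only as the header and the methods give it.

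The 7 genes, the gene lists, motifs and alternatives were chosen with earlier results of these data known. Named by rule were these genes, their neighbours, the 10 most active other long noncoding RNAs with Xist, H19, Meg3, Airn and Kcnq1ot1, and the 3 most active genes of each partner list. All other genes in the text (such as Rn45s, Ehbp1l1, Trim13, Tpst2, Rian, Hottip, Hotairm1, Nono, Sf1, Drosha, the lowest of each list and the markers) were chosen after their values were seen. Ranks count active entries. Of 20128 gene symbols, 18679 (92.8%) were placed on mm9 by GENCODE vM1 names or RefSeq synonyms. Neighbours are the nearest placed genes with an entry, each by its most active entry. The values of 1 neighbour are not reported here. Promoter and microRNA sequences came from RefSeq tables of GRCm38.p6, and no coordinates were converted. Alternatives changed the background of the ranks, the entry that stands for a gene, the filter on low values, a pseudocount of 0.01 and the promoter window. The functions for ranks, motifs and neighbours were tested on simulated data. Python 3.11.15, pandas 2.3.3, numpy 2.4.6, scipy 1.17.1, pysam 0.24.0 and matplotlib 3.10.9 were used.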

Additional observations from a re-analysis of the deposited data

How the results depend on the processing

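The share of entries below the median entry of the 7 genes was 89.0% of active entries. This share was 93.5% when only noncoding entries formed the background and 92.3% when inactive entries were counted as lowest. It was 88.7% for coding entries only, 89.0% for a single entry per symbol and 88.9% for activities of at least 0.01. The entries are the whole table and not a sample of it, so no error is attached to these shares. Counted by gene symbol, 7 were active in place of 11 entries, and 10 entries remained at an activity of at least 0.1, as Miat did not reach it. The number of neighbour pairs with the long noncoding RNA gene higher was 7 whichever entry stood for a gene, counting the pair of Malat1 and Neat1, in which both are such genes. The ratio of Malat1 to Neat1 was 1.70 with the most active Neat1 entry, 2.73 with the median and 6.85 with the least active. Of the 151 genes of all lists in the table, 133 were active (68.7% of all symbols were), 124 at an activity of at least 0.1 and 132 with every entry active. At 0.1, the markers of other cell types fell from 4 to 0. The median G and C content of the 4 promoters was 66.7%, and 64.4% in 1 kb centred on the mm9 TSS. In the longer window Dleu2, at 68.7%, was above Tug1, at 67%, which reversed their order. No paired analysis was possible because the table used here holds only the pooled value of the libraries, and for the same reason no replicate could be left out. The table gives no read counts, so no counting interval was computed, and the 0.02 RPKmM of Miat is limited by rounding.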
